A study of Mus musculus with 7 samples.

Results

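Cadherins and protocadherins are adhesion proteins of the cell surface whose extracellular repeats bind calcium. Here they were taken as all genes whose symbol is Cdh or Pcdh followed by a digit or by a, b or g, with at least 20 counts over 7 single-cell RNA sequencing libraries of mouse cortex. The rule gave 71 of 19614 genes. Pcdhgb2, Pcdha3 and Pcdhb2 stood at its edge with 20 counts each, and Pcdhgc3 fell just outside it with 18. The libraries came from 2 areas, the ventromedial prefrontal cortex (PFC) and, as the second area, motor cortex (MC), of B6129SF1/J mice at postnatal day 30, with 12 h of light in each day. All mice carried Opn4-Cre on 1 allele, which drives recombination in cells that express melanopsin, among them the intrinsically photosensitive ganglion cells of the retina. Control mice (CTRL) were Opn4-Cre/+; Brn3b-+/+, and the ablated mice (DTA) were Opn4-Cre/+; Brn3b-zDTA/+, in which diphtheria toxin A is expressed from the Brn3b locus after recombination. Opn4 and Brn3b were not analysed here, and the ablation was not checked in these cortical libraries. There were 2 CTRL and 3 DTA libraries of PFC, and MC had 1 CTRL and 1 DTA library. The labels do not say whether a library holds 1 animal, so p-values measure the spread between libraries.

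Classical cadherins of types I and II join cells by binding in trans and hold the actin cytoskeleton through catenins. The delta protocadherins (delta-1 and delta-2) are single genes with weaker adhesion that act in axon growth, sorting and synapses. The clustered protocadherins alpha, beta and gamma lie in tandem, and each neuron is known to choose a few of their promoters, which gives the cell surface a label used in self-avoidance of its branches. In cortex, combinations of cadherins are known to mark areas, layers and classes of interneurons.

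The 71 genes comprised 3 type I cadherins, 13 type II cadherins, Cdh13, Cdh23, 4 delta-1 and 5 delta-2 protocadherins, 3 other single protocadherins, and 8 alpha, 21 beta and 12 gamma members of the clusters. The 5 delta-2 genes held 75275 counts and the 4 delta-1 genes 72036, whereas the 21 beta genes together held 11949, the 12 gamma genes 3506 and the 8 alpha genes 628. The 10 members with the most counts were Pcdh9, Pcdh17, Pcdh10, Pcdh7, Cdh2, Cdh13, Cdh11, Pcdh19, Pcdh15 and Pcdh11x. The chemistry reads the 3′ ends of transcripts. All 14 coding alpha genes share a single annotated 3′ end, as do 17 of the 22 gamma genes. Only 1 gamma gene has a 3′ end that no other gene ID has. Counts of alpha and gamma members, single or summed, are therefore uncertain, and how far their low totals reflect expression was not tested. All 22 beta genes have 3′ ends of their own. One of the rows counted as an alpha member, Pcdha11.1, is the second row of a symbol that the annotation gives to 2 gene IDs.

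The 3 members on which the comparison of areas turned most, and whose annotated start is the same in RefSeq and GENCODE, are shown with the 250 bases before that start (RefSeq, GRCm38.p6, each 5′ to 3′ on the strand of its gene). Cdh6 encodes a type II cadherin and lies on the minus strand of chromosome 15. Pcdh17 and Pcdh8 encode delta-2 protocadherins and lie on chromosome 14, on the plus and the minus strand. Capitals mark CCAAT (the CCAAT box), TATAAA (the TATA box) and ATTTGCAT (the octamer bound by POU factors), searched on both strands.
Cdh6 (chr15:13173676-13173925, minus strand): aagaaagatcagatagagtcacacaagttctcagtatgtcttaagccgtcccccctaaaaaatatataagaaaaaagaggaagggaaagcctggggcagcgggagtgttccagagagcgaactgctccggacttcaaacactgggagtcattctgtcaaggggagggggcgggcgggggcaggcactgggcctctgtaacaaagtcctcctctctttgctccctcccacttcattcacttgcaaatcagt
Pcdh17 (chr14:84443313-84443562, plus strand): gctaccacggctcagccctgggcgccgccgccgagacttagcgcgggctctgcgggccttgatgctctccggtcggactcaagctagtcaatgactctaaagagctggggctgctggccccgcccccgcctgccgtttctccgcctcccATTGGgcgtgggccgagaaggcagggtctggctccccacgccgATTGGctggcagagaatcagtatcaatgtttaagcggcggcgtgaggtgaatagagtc
Pcdh8 (chr14:79771313-79771562, minus strand): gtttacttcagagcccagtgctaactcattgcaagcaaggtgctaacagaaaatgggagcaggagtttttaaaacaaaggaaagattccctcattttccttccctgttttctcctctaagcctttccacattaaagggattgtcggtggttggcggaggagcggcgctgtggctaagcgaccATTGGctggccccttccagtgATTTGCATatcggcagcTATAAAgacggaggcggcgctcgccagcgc

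The Cdh6 window holds none of these motifs, Pcdh17 holds CCAAT at 2 places and Pcdh8 holds all 3 motifs. Of 32851 promoter windows of the same length, 33.8% hold CCAAT, 12.4% hold TATAAA and 1.6% hold ATTTGCAT. The homeodomain core TAATTA is found in 4.84% of windows, the nuclear receptor core AGGTCA in 14.0% and the E-box CAGCTG in 13%, and none of these is in the 3 sequences. The windows of Pcdh17, Cdh6 and Pcdh8 hold 21, 6 and 11 CG dinucleotides. The 3 motifs in capitals were picked after the sequences had been read, and a match is only a description of letters. RefSeq windows were found for 21 members outside chromosome 18. By the GENCODE annotation of GRCm38, 44 members lie on chromosome 18, where the clusters are, and 5 each on chromosomes 8, 14 and 15.

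The libraries held 1936 to 9879 cells and 6180059 to 30972905 counts each. Pairs of libraries shared 7 to 92 cell barcodes, at most 1.5% of the smaller. Cells were grouped without the 71 genes and named by marker genes, so each name means cells that resemble the type. In PFC DTA replicate 3, 32.7% of cells stayed unnamed, against 1.04% to 5.88% in the other libraries. That library also stands apart in the make-up of its layer types, as given below. Levels are counts per 1000000 (CPM) within the summed counts of a type in a library, and they are not set between genes, since 3′ counts of different genes are captured unequally. In these summed counts, less RNA per cell and fewer cells with the gene cannot be told apart.

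Of the 71 members, 29 reached a mean of 20 CPM in at least 1 of 8 cell classes. Among these 8, their highest class was the oligodendrocyte precursor for 8, excitatory neurons and inhibitory neurons for 5 each, astrocytes and endothelial cells for 4 each, newly formed oligodendrocytes for 2 and oligodendrocytes for 1. None was highest in microglia. The 8 classes are those with at least 20 cells in every library, and smaller classes (pericytes, smooth muscle cells, fibroblasts, perivascular macrophages and neuroblasts) are given only as pooled levels over all libraries, with no SD. The cell classes come from the same cells, so these levels are a description with no test.

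**Figure D1:**
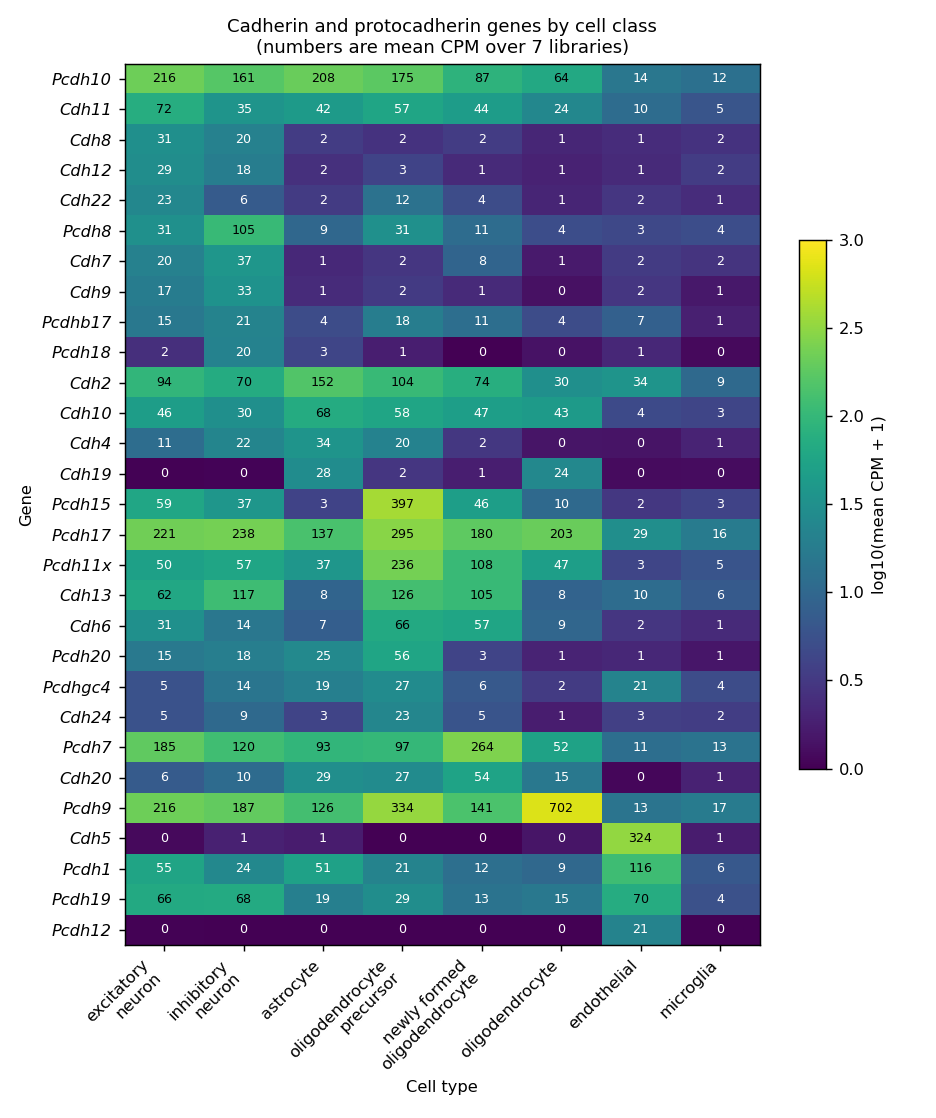
Mean level (CPM, printed in each cell) of the 29 members that reached 20 CPM in a class, by gene (rows) and cell class (columns) over 7 libraries, with the colour on a log10 scale. Cdh5 and Pcdh12 stand out in endothelial cells, Pcdh15 in oligodendrocyte precursors and Pcdh9 in oligodendrocytes, while Pcdh10 and Pcdh17 are spread over neurons and glia.

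Cdh5 and Pcdh12 had their highest level in endothelial cells. Cdh5, the VE-cadherin of endothelial junctions, ranged from 248.8 to 370.2 CPM with a median of 333.5 in endothelial cells, and its mean in each of the other 7 classes was under 1 CPM. Of the pooled smaller classes, smooth muscle cells stood at 102.1 CPM of Cdh5 (58 counts) and fibroblasts at 50.4 CPM (19 counts). Pcdh12, which is also known from endothelium, had a median of 21.2 CPM there (range 11.7 to 32.5). Pcdh1, a delta-1 protocadherin, reached 115.9 ± 15.1 CPM (SD, n = 7) in endothelial cells against 55.3 in excitatory neurons, the next of the 8 classes. Its pooled level was 68.5 CPM in pericytes and 66.9 CPM in smooth muscle cells.

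Several members had their highest class in the oligodendrocyte lineage. Pcdh15, best known for the tip links of inner ear hair cells, ranged from 306.3 to 489.1 CPM in oligodendrocyte precursors with a median of 394.3. Its mean there was 6.74 times that in excitatory neurons, the next of the 8 classes, and the ranges of the 7 libraries did not overlap. Its pooled level in neuroblasts was 151.0 CPM (53 counts). In newly formed oligodendrocytes Pcdh15 stood at 46.5 CPM and in oligodendrocytes at 9.51 CPM. Pcdh9, a delta-1 protocadherin, was lowest at the middle stage and highest at the last: its mean was 333.5 CPM in precursors, 140.7 in newly formed oligodendrocytes and 701.8 ± 86.2 (SD, n = 7) in oligodendrocytes. Pcdh11x, an X-linked delta-1 gene, had a mean of 236.5 CPM in precursors, 108.2 in newly formed oligodendrocytes and 47.2 in oligodendrocytes. Its pooled level in neuroblasts was 136.8 CPM (48 counts). Cdh20, a type II cadherin, and Pcdh7, a delta-1 protocadherin, were highest in newly formed oligodendrocytes, at 53.6 and 264.1 CPM. Both overlapped the range of the next class. Cdh24, a type II cadherin, and Pcdh20, a single protocadherin, were highest in precursors, at 22.6 and 56.3 CPM. Cdh24 overlapped the range of the next class and Pcdh20 did not. Cdh19, known from glia of peripheral nerves, was found in astrocytes (27.7 CPM) and oligodendrocytes (24.3 CPM) and was under 3 CPM on average in each of the other 6 classes.

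Astrocytes were the highest class for Cdh2, the N-cadherin of neural junctions, at 151.5 ± 25.0 CPM (SD, n = 7). The next of the 8 classes, the precursors, stood at 104.0 CPM, and the ranges overlapped. Cdh4 (R-cadherin) and the type II cadherin Cdh10 also had their highest means in astrocytes, at 34.2 and 68.5 CPM, again with ranges that overlapped those of the next class. Of the 44 counts of Cdh23, the partner of Pcdh15 in hair cells, 26 lay in microglia, at 7.06 ± 3.64 CPM (SD, n = 7). In microglia the other members were low, Pcdh9 at 16.8 CPM and Pcdh17 at 16.5 CPM. Free RNA was not estimated, and its part in low levels such as these was not tested.

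Pcdh8 and Pcdh18, both delta-2 genes, were higher in inhibitory than in excitatory neurons, while the sum of the 5 delta-2 genes overlapped (592.7 ± 77.5 CPM against 535.2 ± 156.5, SD, n = 7). Pcdh8, an activity-regulated protocadherin, had a median of 103.8 CPM in inhibitory neurons (range 60.9 to 155.4) against 37.2 in excitatory neurons (range 12.4 to 50.1), with no overlap. Pcdh18 stood at 20.4 ± 7.15 CPM (SD, n = 7) in inhibitory neurons and at 1.56 CPM in excitatory neurons, and its pooled level in pericytes was 103.3 CPM (92 counts). Cdh22, Cdh12 and Cdh8, all type II cadherins, had their highest means in excitatory neurons, at 23.4, 28.6 and 30.6 CPM, and their ranges overlapped those of the next class.

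Among interneurons, single cadherins followed the subtype. Cdh24 reached 48.0 ± 23.8 CPM (SD, n = 7) in Lamp5 neurons, against 2.49 CPM in Vip neurons, the next of the 4 subtypes given by library (Lamp5, Sst, Vip and Pvalb). Sst neurons were highest for Cdh13, the T-cadherin that is tied to the membrane by a lipid anchor and lacks a cytoplasmic tail. Its median there was 231.7 CPM (range 198.0 to 376.5), against a mean of 77.7 in Pvalb neurons. Cdh9, a type II cadherin known for matching synaptic partners in the hippocampus, was also highest in Sst neurons, at 76.0 CPM against 20.7 in Pvalb neurons. Neither Cdh24, Cdh13 nor Cdh9 overlapped between its highest subtype and the next of these 4. Of these 4, Vip neurons had the highest means of Pcdh8 (223.2 CPM), Cdh10 (62.3), Pcdh20 (40.6) and Cdh6 (37.7). The ranges of Cdh10, Pcdh20 and Cdh6 overlapped those of the next of these subtypes. Within Vip neurons, Pcdh20 was higher in both MC libraries than in the PFC libraries, as given below. Sncg neurons, 181 cells with as few as 4 in a library, were left out of this order. Their pooled level was 11.1 CPM for Cdh24 (15 counts), 36.3 for Cdh9 (49 counts) and 23.7 for Cdh13. For Pcdh20 (95.6 CPM, 129 counts) and Cdh6 (40.0 CPM, 54 counts) it was above the mean of Vip neurons. Pvalb values rest on 6 libraries, since PFC DTA replicate 1 held 19 such cells.

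In PFC excitatory neurons the members differed from layer to layer. Cells were assigned to 6 types: intratelencephalic (IT) neurons of layers 2/3, 4/5 and 6, extratelencephalic (ET) and near-projecting (NP) neurons of layer 5, and corticothalamic (CT) neurons of layer 6. Of 22 members with at least 20 CPM in one of these types, 16 had a highest layer mean at least 3 times the lowest, and in 3 the ratio was under 2 (Cdh2, Cdh11 and Pcdh1). The 22 entered by their highest type alone, which favours large ratios. The share of all genes with such ratios was not computed, so the count does not set the members apart from other genes. For 8 of the 12 members with the largest ratios the lowest type was L5 NP, with 0 to 31 counts over the 5 libraries, so those ratios carry wide counting error.

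**Figure D2:**
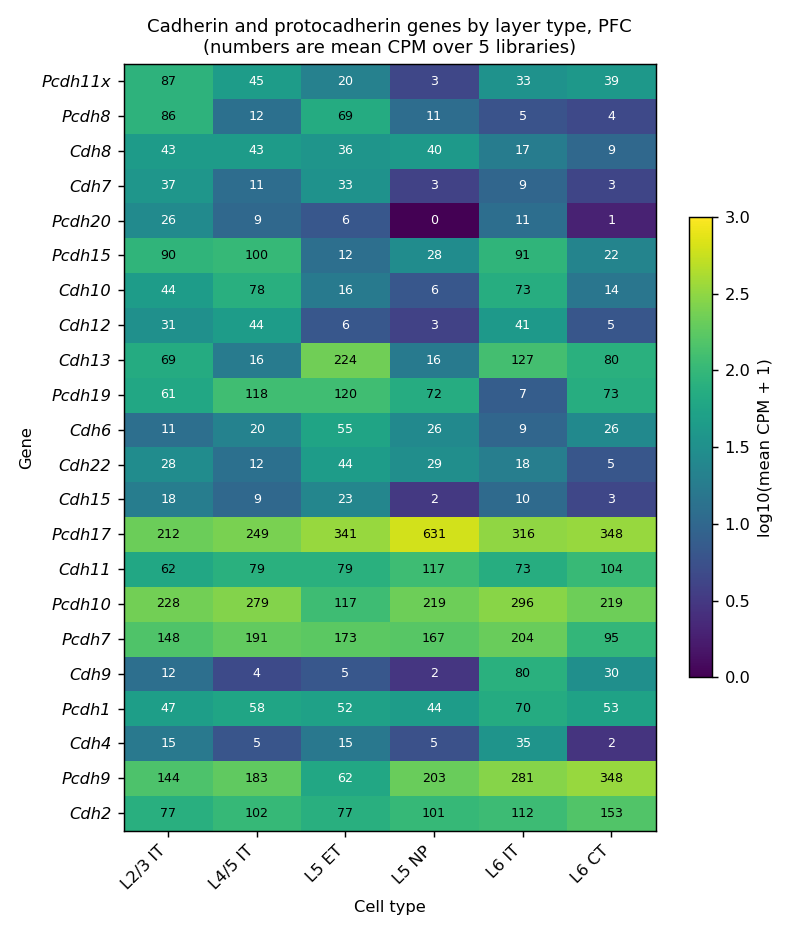
Mean level (CPM, printed in each cell) of the 22 members that reached 20 CPM in a layer type, by gene (rows) and type (columns) over the 5 PFC libraries, with the colour on a log10 scale. Cdh9, Pcdh11x and Pcdh8 have the largest ratios of highest to lowest type, with Pcdh20 not detected in L5 NP neurons, and Cdh2, Cdh11 and Pcdh1 vary least.

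Pcdh8, Pcdh11x, Pcdh20, Cdh7 and Cdh8 had their highest layer mean in L2/3 IT neurons. Pcdh8 stood at 89.1, 79.1, 83.4, 84.8 and 92.4 CPM in the L2/3 IT neurons of the 5 PFC libraries and at 69.3 ± 7.34 CPM (SD, n = 5) in L5 ET neurons, which did not overlap. In the other types its mean was at most 11.8 CPM, and in L6 CT neurons it was 3.59 CPM. Pcdh11x had 86.8 ± 13.6 CPM in L2/3 IT neurons against 45.1 in L4/5 IT neurons, again without overlap. Pcdh20 reached 26.4 ± 4.41 CPM in L2/3 IT neurons, with a range that overlapped that of L6 IT neurons, the next type (11.2 CPM). In L5 NP neurons Pcdh20 had 0 counts, so its mean in L2/3 IT neurons was at least 20-fold higher. That bound sets 3 counts over the 5 libraries as the floor.

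Some members were higher in the IT types of all depths than in the other types. Pcdh15 stood at 90.0, 100.4 and 91.2 CPM in L2/3, L4/5 and L6 IT neurons and at 11.6 to 27.9 CPM in the ET, NP and CT types. Cdh12 had 31.2, 44.3 and 40.8 CPM in the IT types and at most 5.58 CPM in the other types. Cdh10 had 44.4, 78.0 and 73.3 CPM in the IT types and at most 15.7 CPM in the others. Pcdh20 and Pcdh10 also had their 3 highest means in the IT types.

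Deep IT neurons had a profile of their own. Cdh9 stood at 61.0, 68.5, 57.4, 77.9 and 134.2 CPM in L6 IT neurons, all above the L6 CT neurons, whose mean was 29.9 ± 12.2 CPM (SD, n = 5). Its lowest mean was in L5 NP neurons at 2.01 CPM, from 5 counts. Cdh4, with L2/3 IT neurons as the next type (15.3 CPM, ranges overlapping), was also highest in L6 IT neurons, at 34.7 ± 12.8 CPM. Pcdh19, an X-linked delta-2 gene known from a form of epilepsy, was nearly missing from these cells: it read 0, 21.1, 0, 5.19 and 6.97 CPM in L6 IT neurons against 118.4 ± 22.3 in L4/5 IT and 119.8 ± 7.48 in L5 ET neurons.

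L5 ET neurons had the highest means of Cdh13 (223.9 ± 47.4 CPM), Cdh6 (55.0 ± 8.93), Cdh22 (44.2) and Cdh15, the M-cadherin known from muscle (22.9), each over 5 libraries. The range of Cdh13 overlapped that of L6 IT neurons, the next type (126.9 CPM), whereas Cdh6 and Cdh22 did not overlap their next type. Cdh7, a type II cadherin, was highest in L2/3 IT at 37.1 CPM and next in L5 ET at 33.1 CPM. Pcdh17, known for presynaptic assemblies in circuits between cortex and basal ganglia, was highest in L5 NP neurons, where the 5 libraries read 503.7, 601.7, 565.0, 887.1 and 596.0 CPM. L6 CT neurons followed at 347.6 ± 42.6 CPM, and the libraries of these types did not overlap. In the MC the same order held at its top, with 539.9 and 424.2 CPM of Pcdh17 in L5 NP neurons. L6 CT neurons had the highest means of Pcdh9 (347.6 CPM) and Cdh2 (152.9 CPM), with ranges that overlapped those of L6 IT neurons.

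The sums of the clustered protocadherins differed from class to class. The 21 beta genes together gave 125.0 ± 25.9 CPM (SD, n = 7) in oligodendrocyte precursors, 115.5 ± 20.1 in inhibitory neurons, 86.2 ± 7.30 in excitatory neurons and 73.6 ± 17.4 in newly formed oligodendrocytes. Endothelial cells, astrocytes, oligodendrocytes and microglia followed at 43.2, 30.8, 24.8 and 10.3 CPM. The 12 gamma genes were also highest in oligodendrocyte precursors, at 63.8 ± 11.8 CPM, followed by endothelial cells (52.7 ± 10.0) and astrocytes (45 ± 4.91). They stood at 27.1 CPM in inhibitory neurons, 26.1 in newly formed oligodendrocytes, 19.6 ± 2.41 in excitatory neurons, 14.9 in microglia and 7.95 in oligodendrocytes. These gamma sums carry the uncertainty of shared 3′ ends, as given above. Of the 8 classes, Pcdhgc4 had its highest mean in oligodendrocyte precursors at 26.7 CPM, and its pooled level in neuroblasts was 39.9 CPM (14 counts). In excitatory neurons Pcdhb17 made up a median of 16.9% of beta counts, with a range of 15.9% to 18.1% over the 7 libraries. Pcdhb20, Pcdhb7 and Pcdhb22 followed with medians of 12.5%, 10.2% and 9.07%, and Pcdhb2 came last with 0.115%.

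Few of these isoforms were seen in any 1 cell. With each cell thinned to 2000 counts, between 19.4% and 24.7% of excitatory neurons and between 20.7% and 30.5% of inhibitory neurons had a count of at least 1 of the 41 clustered members. At least 2 different members were seen in 1.59% to 3.0% of excitatory and 3.33% to 5.07% of inhibitory neurons. Over the cells of all libraries, 14.7% of astrocytes and 4.82% of microglia, given for comparison, had at least 1. Without thinning the share in excitatory neurons ran from 26.2% to 72.9% as the median depth ran from 3094 to 15830 counts per cell. Thinning left out 2948 excitatory, 836 inhibitory and 1371 microglial cells of lower depth. How many isoforms a neuron expresses was not detectable at this depth and with the shared 3′ ends of alpha and gamma genes.

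The comparison of MC with PFC used the 7 libraries together and adjusted for genotype (edgeR quasi-likelihood test, Benjamini-Hochberg adjustment over all genes of a type). In excitatory neurons 11 of the 53 members tested differed between MC and PFC at an adjusted p under 0.05, beside 5.39% of all genes tested. Of these 5 were higher in the MC (Cdh6, Pcdh7, Pcdh20, Cdh22 and Cdh12) and 6 were lower (Pcdh17, Pcdh8, Pcdh19, Pcdh15, Cdh13 and Cdh15). The median log2 fold change of the 53 was 0.08, against -0.01 over all genes. The MC rests on 1 library of each genotype: without MC CTRL 3 of the 11 were still called, and without MC DTA 2, Cdh6 and Pcdh17 in both cases. Pcdh8 was the third. With 1 PFC library left out, 8 to 11 members were called.

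Of the layer types tested, L2/3 IT neurons had the most members called, but also the most cells and the largest share of all genes called. There 9 of 46 members tested were called, beside 7.66% of all genes, 3 of them higher in the MC and 6 lower. In L4/5 IT neurons 4 of 44 were called beside 2.4% of all genes, in L6 CT neurons 3 of 34 beside 2.87%, and in L5 NP neurons 1 of 11 beside 0.205%. Without MC CTRL or without MC DTA, 4 of the 9 in layer 2/3 were still called. L5 ET and L6 IT neurons were not tested, as the MC libraries held 13 and 10 L5 ET neurons and MC DTA held 18 L6 IT neurons. In all, 14 members were called in excitatory neurons or in one of these types, and 15 of the 71 had too few counts to be tested in any type.

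**Figure D3:**
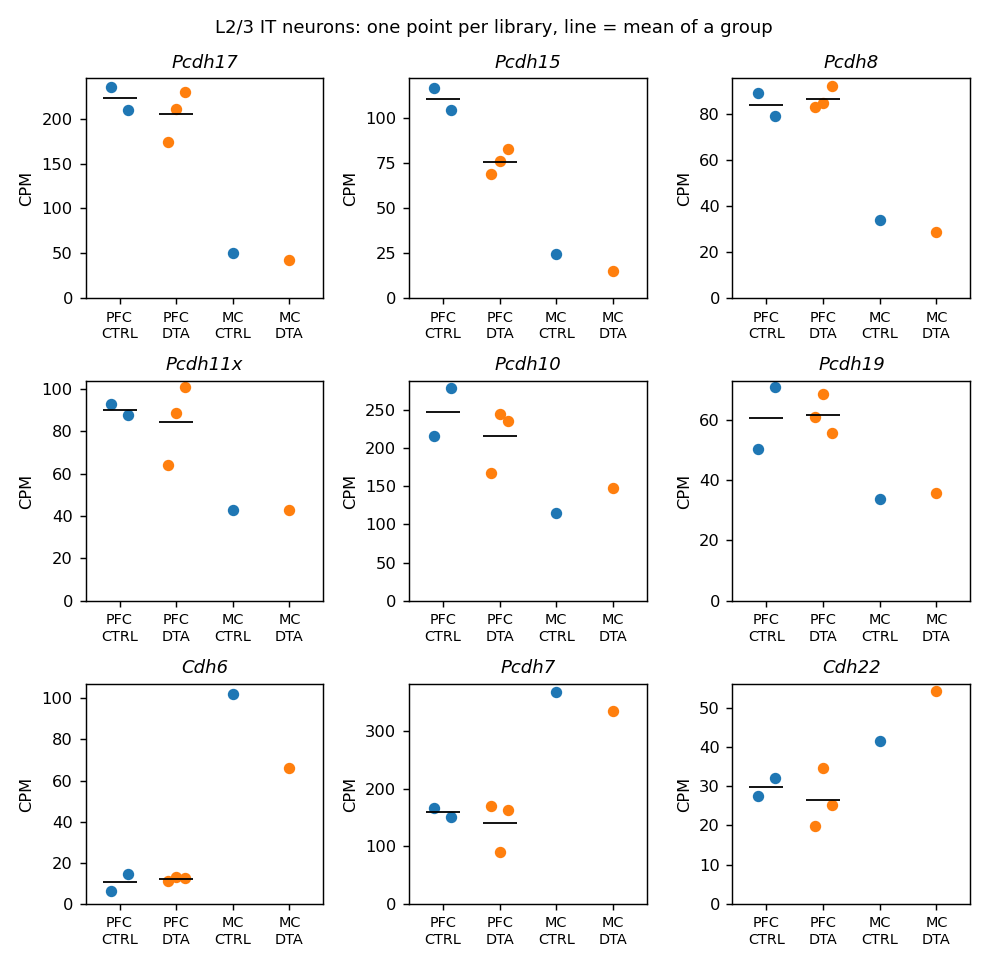
Level (CPM, axes from 0) of the 9 members called between areas in L2/3 IT neurons, 1 point per library, in PFC CTRL (2), PFC DTA (3), MC CTRL (1) and MC DTA (1), with a line at the mean of groups of more than 1. Both MC libraries lie outside the range of the 5 PFC libraries in each panel, below it for Pcdh17, Pcdh15, Pcdh8, Pcdh11x, Pcdh10 and Pcdh19 and above it for Cdh6, Pcdh7 and Cdh22.

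Pcdh17 was lower in the MC in 3 layers. In L2/3 IT neurons it read 235.4 and 210.1 CPM in the PFC CTRL libraries and 174.0, 210.4 and 230.0 in those of PFC DTA, whereas MC CTRL stood at 50 and MC DTA at 42.8. Every PFC library was above both MC libraries, and the log2 fold change was -2.21 (SE 0.161, edgeR adjusted p = 7.16e-06). The change was -1.89 (SE 0.201, adjusted p = 0.000457) in L4/5 IT neurons. In L6 CT neurons it was -1.05 (SE 0.172, adjusted p = 0.000564), and adjusted p = 0.161 without MC DTA. In inhibitory neurons, astrocytes and the other classes Pcdh17 did not pass the test.

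Pcdh15 and Pcdh8 were also lower in layer 2/3 of the MC. Pcdh15 stood at 117.2 and 104.6 CPM in PFC CTRL, at 68.9, 76.1 and 83.0 in PFC DTA, and at 24.5 and 15.1 in MC CTRL and MC DTA, a log2 fold change of -2.25 (SE 0.159, edgeR adjusted p = 6.63e-06). Pcdh8 stood at 79.1 to 92.4 CPM in the 5 PFC libraries and at 34 and 28.6 in the MC libraries, a log2 fold change of -1.45 (SE 0.151, adjusted p = 0.000137). Each was still called with MC CTRL or MC DTA left out. Pcdh11x fell by 1.04 on the log2 scale, Pcdh19 by 0.82 and Pcdh10, the OL-protocadherin, by 0.80, and none of these passed without MC CTRL or without MC DTA.

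Cdh6 was the member most raised in the MC. In L2/3 IT neurons the PFC CTRL libraries read 6.36 and 14.4 CPM and those of PFC DTA 10.9, 13.1 and 12.5, whereas MC CTRL stood at 102.1 and MC DTA at 66.1. The MC libraries were both far above the PFC range, at a log2 fold change of 2.77 (SE 0.210, edgeR adjusted p = 2.69e-05). In L4/5 IT neurons Cdh6 rose by 1.61 (SE 0.190, adjusted p = 0.000621), and adjusted p = 0.104 without MC CTRL. In the PFC, L2/3 IT neurons were among the lowest types for Cdh6, and L5 ET neurons the highest, as given above.

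Pcdh7, which read 90.3 to 170.3 CPM in L2/3 IT neurons of the PFC, read 368.4 and 335.2 in the MC, a log2 fold change of 1.24 (SE 0.211, edgeR adjusted p = 0.00674). It was also higher in L6 CT neurons, with 62.9 to 111.0 CPM in the PFC against 244.5 and 185.3 in the MC (log2 fold change 1.15, SE 0.174, adjusted p = 0.000291). That call held with MC CTRL or MC DTA left out, whereas the call in L2/3 IT neurons did not (adjusted p = 0.107 and 0.166). Its call in L5 NP neurons (log2 fold change 1.0, adjusted p = 0.0398) was lost without any 1 of 6 libraries, with DESeq2 and with a depth term. Cdh24 was called in L6 CT neurons, where it read 3.34 to 9.21 CPM in the PFC and 16.7 and 22.1 in the MC (log2 fold change 1.65, SE 0.312, adjusted p = 0.00262). It did not pass without MC CTRL (adjusted p = 0.226) or without MC DTA (0.0894). In these L6 CT neurons the L6 CT markers summed to 2448 to 3070 CPM in the PFC and to 2436 and 2172 in the MC. The L5 NP markers (339.7 to 439.0 against 300.7 and 287.1), the astrocyte markers (47.9 to 66.8 against 73.8 and 71.1) and the L6 IT markers (2.47 to 10.4 against 12.6 and 11.5) also lay apart. The sub-cluster numbered 21 held 2.2% to 33.9% of L6 CT neurons in the PFC and 0% in both MC libraries. The sub-cluster numbered 13, also named L6 CT, had Ctgf, a marker of layer 6b neurons, as its leading gene. It held 10.3% to 38.0% of L6 CT neurons in the PFC, 3.34% in MC CTRL and 16.7% in MC DTA. There Pcdh17 read 389.6 to 786.2 CPM in 4 PFC libraries, against 305.4 to 383.5 CPM in 5 PFC libraries in sub-cluster 0. Inside the sub-clusters numbered 0 and 11, both MC libraries lay outside the PFC range for Pcdh7, Pcdh17 and Cdh24. These 3 were picked by their call in the same cells, so the values are a description and no separate test. How often all genes lie apart there was not counted. The part of the markers and of the sub-clusters in the L6 CT calls was not tested.

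Cdh22 rose in L2/3 IT neurons (log2 fold change 0.74, edgeR adjusted p = 0.0258) and in L4/5 IT neurons (1.08, adjusted p = 0.0106). Both calls were lost without MC CTRL (adjusted p = 0.101 and 0.199) and without MC DTA (0.588 and 0.504), and over all settings the log2 fold changes went down to 0.48 and 0.61. The call in L4/5 IT neurons was also lost with doublets kept and at doubled resolution, and that in L2/3 IT neurons without PFC CTRL replicate 1 and with a depth term. Pcdh20 rose in L4/5 IT neurons, with 6.97 to 11.4 CPM in the PFC and 24.4 and 20.9 in the MC (log2 fold change 1.26, adjusted p = 0.00956). It was lost without MC CTRL (adjusted p = 0.406) and without MC DTA (0.181), and it depends on which cells are counted in the type: the log2 fold change was -0.42 with doublets kept and -0.96 at a doubled cluster resolution. Inside the sub-clusters of L4/5 IT neurons numbered 5 and 7, Pcdh20 was higher in both MC libraries than in the 4 PFC libraries with at least 20 cells, and in those numbered 8 and 17 the ranges overlapped. Pcdh20 was picked by its call in the same cells, so these values too are a description. The L2/3 IT markers summed to 401.1 and 447.5 CPM in the L4/5 IT neurons of the MC libraries and to 229.5 to 304.2 in the PFC. The L5 NP markers (90.7 to 479.5 in the PFC against 47.1 and 69.6 in the MC) and the L5 ET markers (101.4 to 177.8 against 87.8 and 95.5) also lay apart. So did the L6 CT markers (348.4 to 460.4 against 260.7 and 327.3) and the L6 IT markers (3.22 to 10.7 against 3.05 and 0.882). The part of these markers in the L4/5 IT calls was not tested.

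**Figure D4:**
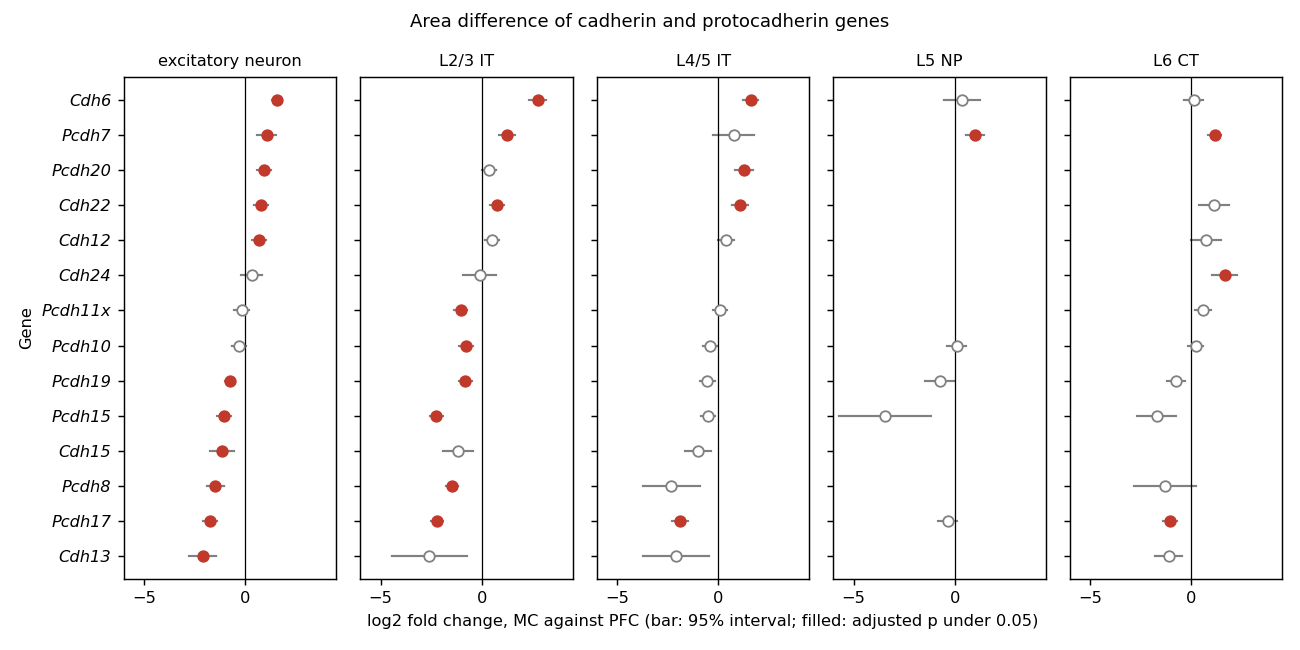
Log2 fold change of MC against PFC (x axis) in 5 panels by cell type. Rows are the 14 members called in excitatory neurons or in a layer type. Bars are 95% intervals from the normal quantile, which is narrow for so few libraries. Filled points passed an adjusted p of 0.05. Pcdh17 lies below 0 in each panel with a value, and Cdh6 is farthest above 0 in L2/3 IT neurons.

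Cdh13, Cdh15 and Cdh12 were called in excitatory neurons as a whole and in no single layer. Cdh13 read 90.9 and 86.8 CPM in the PFC CTRL libraries, 54.9, 112.0 and 51.7 in those of PFC DTA, and 23.9 and 14.6 in the MC CTRL and MC DTA libraries, a log2 fold change of -2.11 (SE 0.338, edgeR adjusted p = 0.0124). Cdh15 fell by 1.18 on the log2 scale, with an adjusted p just under 0.05 that was lost when any 1 of 5 libraries was left out. Cdh12 rose by 0.67 (adjusted p = 0.0426) and was lost without any 1 of 6 libraries. L5 ET neurons, the type with the most Cdh13 and Cdh15, were 3.9% to 12.2% of layer-named excitatory neurons in the PFC libraries and 0.711% and 1.75% in MC CTRL and MC DTA. What that share contributes to these calls was not tested.

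The make-up of layer 2/3 also differed between areas. Among L2/3 IT neurons, the sub-cluster numbered 2 held 54.6% and 52.8% of cells in the MC libraries and 2.82% to 20.2% in the PFC libraries, and the sub-cluster numbered 19 held 50.1% of those of PFC DTA replicate 3 and at most 3.97% elsewhere. Levels were also compared inside single sub-clusters. Of the 9 called members, both MC libraries lay outside the PFC range for 8 in sub-cluster 1, for 7 in sub-cluster 2 and for 9 in sub-cluster 3, over the PFC libraries with at least 20 cells. These 9 were picked by their call in the same cells, so the values are a description and no separate test. How often all genes lie apart in this way was not counted. In sub-cluster 15, with 1 MC library of at least 20 cells, 5 of the 9 lay outside the PFC range, and Pcdh15, Pcdh8, Pcdh11x and Pcdh19 did not. In sub-cluster 2, for example, Pcdh17 read 171.2 to 261.3 CPM in 4 PFC libraries and 48.4 and 53.5 in the MC, and Cdh6 read 3.55 to 21.2 against 70.0 and 107.8. Without PFC DTA replicate 3, 13 members were called in L2/3 IT neurons and 11 in excitatory neurons. The L5 NP markers summed to 335.1 to 450.5 CPM in the L2/3 IT neurons of the PFC and to 68.5 and 118.9 CPM in the MC, and the L2/3 IT markers to 1104 to 1352 and to 1813 and 1877. The L6 CT markers (108.2 to 242.3 CPM against 104.3 and 89.9) and the L5 ET markers (57.2 to 73.4 against 86.4 and 96.5) also lay apart. The part of these markers in the result was not tested. The other 9 marker lists, those of astrocytes and oligodendrocyte precursors among them, overlapped between the areas in these cells.

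Outside excitatory neurons 3 calls were made. In inhibitory neurons 2 of 42 members passed, beside 2.23% of all genes. Pcdh8 was lower in the MC (60.9 and 72.9 CPM against 97.6 to 155.4; log2 fold change -0.79, SE 0.178, edgeR adjusted p = 0.0188), and Cdh6 was higher by 0.92 (adjusted p = 0.0475) with overlapping ranges. In these cells the inhibitory markers (2641 to 2947 CPM in the PFC against 3216 and 3167 in the MC) and the neuroblast markers (160.3 to 190.8 against 149.5 and 149.5) lay apart. Lamp5 neurons were 189 of 679 and 53 of 245 inhibitory neurons in MC CTRL and MC DTA. In the PFC they were 21 of 153 and 158 of 1160 in CTRL, and 21 of 117, 45 of 293 and 34 of 254 in DTA. The part of this make-up in the 2 calls was not tested. In Vip neurons 1 of 13 passed, beside 0.484% of all genes: Pcdh20 stood at 4.02 to 46.2 CPM in the PFC and at 101.7 and 63.5 in the MC (log2 fold change 2.14, adjusted p = 0.0496). None of these 3 passed without MC CTRL or without MC DTA. DESeq2 called 1 member over all types outside excitatory neurons. In astrocytes 0 of 19 members passed with edgeR, beside 0.217% of all genes, with 4 at an unadjusted p under 0.05, and in Lamp5 and Sst neurons 0 of 11 and 0 of 22, beside 0.439% and 1.01%, with 3 and 6. Endothelial cells, microglia and the 3 stages of the oligodendrocyte lineage had 0 of 11, 4, 14, 11 and 16 members called, with 0, 1, 3, 0 and 0 at an unadjusted p under 0.05. Of all genes, 0.0106% were called in oligodendrocytes and 0% in the other 4.

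Some partners of these proteins were also called between areas. Of 20 catenins and junction partners, all tested in excitatory neurons, 5 were called: Nectin1 (log2 fold change 0.62, edgeR adjusted p = 0.0137), Magi1 (0.58) and Nectin3 (0.68) were higher in the MC, and Nectin2 (-1.25) and Ctnnbip1, an inhibitor of beta-catenin (-0.52), were lower. Nectins are adhesion molecules that work beside cadherins, and Magi1 is a junction scaffold. The share of all genes called there was 5.39%, as given above, and the median of the 20 was 0.12. Of 14 other genes of the cadherin superfamily tested, Fat1, a large cadherin of the Fat group, was higher (1.0) and the desmosomal genes Dsc2 and Dsg2 were lower from means near 1 CPM. In inhibitory neurons 1 of 10 was called beside 2.23% of all genes: Clstn2, a calsyntenin of the synapse (log2 fold change 1.01, edgeR adjusted p = 0.00166). Clstn2 was also called in Sst neurons (1.13, 1 of 9 beside 1.01% of all genes) and Vip neurons (1.28, 1 of 4 beside 0.484%). Of 24 genes known to act with protocadherins or in the choice of their promoters, 0 were called in excitatory neurons, among them Ctcf and the cohesin genes, and 2 of 23 in L2/3 IT neurons (Ptk2b at 0.72 and Nckap1 at 0.52), a share near the 7.66% of all genes. Single calls of the 3 lists in other types were Magi1 in L2/3 IT, L6 CT and Lamp5 neurons, Ctnna2 and Fjx1 (lower) in L6 CT, Fat3 and Clstn1 in L2/3 IT, and Fat1 and Ptk2b in L4/5 IT neurons. Of the catenin list 1 of 19 was called in L2/3 IT, 0 of 18 in L4/5 IT, 2 of 18 in L6 CT and 1 of 11 in Lamp5 neurons. Of the superfamily list it was 2 of 10 in L2/3 IT, 1 of 8 in L4/5 IT and 1 of 8 in L6 CT neurons. Of the partner list 1 of 23 was called in L4/5 IT neurons. The shares of all genes were 7.66% in L2/3 IT, 2.4% in L4/5 IT, 2.87% in L6 CT and 0.439% in Lamp5 neurons. Whether these calls hold without an MC library is not given here. Ptk2b is a kinase bound by clustered protocadherins and Nckap1 a part of the WAVE complex that binds delta-2 protocadherins.

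Ablation of the retinal cells was compared with control in the PFC libraries, in 17 cell types. With edgeR, 0 of 366 tests of a member passed an adjusted p of 0.05, beside 1 of 142851 tests over all genes. At an unadjusted p under 0.05 there were 15 of these 366, which is 4.1%, against 2.93% of all tests. The share of all genes called was 0% in each type but Vip neurons (0.0224%), where the called gene was no member. DESeq2 also called 0 members.

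**Figure D5:**
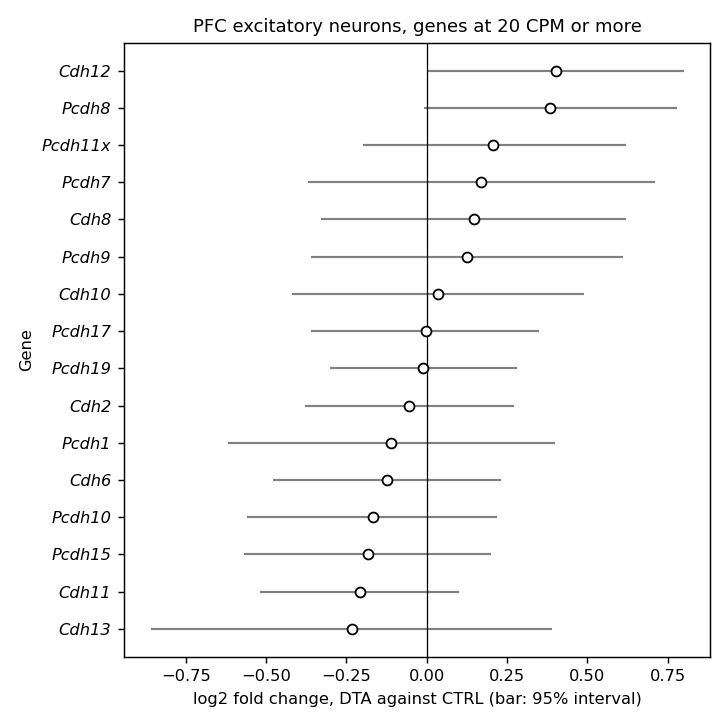
Log2 fold change of DTA against CTRL (x axis) in PFC excitatory neurons, from 2 CTRL and 3 DTA libraries. Rows are the members with a mean of at least 20 CPM. Bars are 95% intervals from the normal quantile, which is narrow for so few libraries. Points are open because no gene passed the adjusted threshold, and they lie on both sides of 0.

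The abundant members of PFC excitatory neurons had small estimated changes with genotype. For the 16 members with at least 20 CPM there, the log2 fold change of DTA against CTRL ran from -0.23 (Cdh13) to 0.40 (Cdh12) with a median SE of 0.20. All 16 intervals (95%, from the normal quantile) lay within a doubling or a halving, with outermost bounds of -0.86 and 0.80. In inhibitory neurons 15 of 18 such members had intervals inside those limits, in astrocytes 14 of 14 and in L2/3 IT neurons 16 of 18. The normal quantile makes these intervals too narrow for 5 libraries. Wider intervals could take some of these members past the limits. The median over all 52 members tested in excitatory neurons was 0.06, against 0.01 over all genes. Members at a few CPM were measured far less tightly, as the values below show.

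Among members with at least 20 CPM, Pcdh15 had one of the smallest unadjusted p-values. In L2/3 IT neurons its 3 DTA libraries, given above, all lay below both CTRL libraries, at a log2 fold change of -0.49 (SE 0.161, edgeR adjusted p = 0.9999). In inhibitory neurons Pcdh15 read 39.8 and 55.4 CPM in CTRL and 23.8, 29.6 and 37.4 in DTA, again without overlap (log2 fold change -0.56, SE 0.227, adjusted p = 0.9999). Cdh13 had 117.3 and 103.2 CPM in CTRL inhibitory neurons and 124.7, 177.4 and 124.3 in DTA (log2 fold change 0.44, SE 0.204). In Sst neurons, its highest interneuron subtype, Cdh13 read 223.2 and 198.0 CPM in CTRL and 231.7, 376.5 and 301.5 in DTA, at 0.59 on the log2 scale. In astrocytes the sign of Cdh13 was the opposite, with 10.7 and 21.4 CPM in CTRL and 2.54, 10.2 and 3.66 in DTA (log2 fold change -1.31, SE 0.546, adjusted p = 0.9997). None of these differences passed the adjusted threshold.

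Most other small p-values belonged to members at low levels. In L4/5 IT neurons Pcdhb8 had a mean of 0.516 CPM in CTRL and 3.53 in DTA (log2 fold change 2.73). In L6 CT neurons Pcdhb9 read 1.46 and 2.92 CPM in CTRL and 6.68, 8.22 and 6.81 in DTA (log2 fold change 1.82, SE 0.556, edgeR adjusted p = 0.9999). In excitatory neurons Pcdhac2, a C-type gene of the alpha cluster, read 0.75 and 0.597 CPM in CTRL and 0.799, 3.63 and 1.56 in DTA, and Cdh20 read 4.61 and 4.34 against 7.46, 4.82 and 9.39. In oligodendrocytes Pcdh19 read 30.1 and 17.2 CPM in CTRL and 11.7, 10.2 and 9.91 in DTA (log2 fold change -1.07, SE 0.392). Pcdh11x in the same cells read 95.1 and 44.3 CPM in CTRL and 35.1, 53.7 and 27.5 in DTA, and the CTRL and DTA ranges overlapped. Its log2 fold change was -0.82 (SE 0.415, adjusted p = 0.9999), and it passed when PFC CTRL replicate 2 was left out (-1.39, adjusted p = 0.00662). No gene of the catenin, cadherin superfamily or protocadherin partner lists was called for genotype in any type.

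In the MC, genotype was represented by 1 library each, so its values carry exact Poisson intervals of counting error only and no test. In excitatory neurons Pcdh9 read 293.6 CPM in MC CTRL and 216.0 in MC DTA, a log2 ratio of -0.44 (interval -0.51 to -0.37). Pcdh17 read 95.5 and 71.1 CPM (log2 ratio -0.43) and Cdh6 71.6 and 48.3 (-0.57). Cdh22 went the other way, with 26.4 and 39.8 CPM (0.59, interval 0.40 to 0.79), and Cdh12 read 38.1 and 38.2. Cdh13 differed in sign between layers: it read 52.1 and 18.2 CPM in L6 CT neurons and 6.61 and 17.3 in L2/3 IT neurons. These ratios hold the spread between 2 libraries as well as any effect of genotype, and the 2 cannot be told apart.

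Whether the genotype effect differed between areas was tested as an interaction over all 7 libraries in 15 cell types. With edgeR, 0 of 394 tests of a member passed an adjusted p of 0.05, beside 0% of all genes in each type. At an unadjusted p under 0.05 there were 16 of the 394 (4.06%), against 1.6% of 144217 tests over all genes. Cdh13 in L6 CT neurons was among them, at an interaction of -1.52 (SE 0.491, adjusted p = 1.0). The interaction rests on a single MC library of each genotype.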

How the data were processed

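The study deposited 1 table of counts per library, and these were used as the authors made them: droplet single-cell counts of unique molecular identifiers per gene and cell. Cell Ranger 3.0.2, Seurat and mm10 are named in the submitters' processing notes, without their settings. The totals of 6180059 to 30972905 counts per library set the precision. The Poisson intervals of the MC libraries cover counting error only. Intervals of the edgeR tests use the SE and the normal quantile.

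From the counts, doublets scored with Scrublet (23 to 443 cells per library) were removed. In PFC DTA replicate 3 the automatic call found 0, so the 295 cells with the highest scores were removed (0.8% per 1000 cells). Cells were clustered with scanpy 1.11.5 and leidenalg 0.10.2 on 2000 variable genes and 30 principal components, without the 71 members. A cluster was named when at least 3 markers of a type were raised 2-fold (1.5-fold for neuron subtypes, in cells with at least 1500 counts), and a class stayed unnamed when its score for a second class passed 0.45. These thresholds were chosen once the clusters were in view, and the members and gene lists were chosen with earlier results of these data known. Counts were summed per library and type, for types with at least 20 cells in each library fitted.

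Sums were filtered (filterByExpr, minimum count 10), given TMM factors and compared by the robust, two-sided quasi-likelihood test of edgeR 4.0.16, adjusted by Benjamini-Hochberg over all genes of a type at 0.05. The fits were tested on simulated data with 100 genes changed 2-fold and 100 changed 4-fold. For genotype, 72 of the 100 2-fold changes were found in excitatory neurons, 64 in L6 CT neurons and 18 in astrocytes. For area the numbers were 78, 78 and 49. Of the 4-fold changes 90 to 100 were found, and 6 to 22 unchanged genes were called. The area test took genotype as a term. Alternatives were DESeq2 1.42.0, RLE scaling, no filter, doublets kept, doubled resolution, a depth term, a replicate block, thinned counts and leaving out each library. Genes named are the 10 members with the most counts, up to 3 per type by ratio to the next type, the 12 with the largest ratio across layer types, all members called, and those of smallest p for genotype. Members and catenin genes named beside these, and the values inside single sub-clusters, were chosen after the data were seen.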

Additional observations from a re-analysis of the deposited data

How the results depend on the processing

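In the PFC genotype comparison 0 members were called with DESeq2, RLE scaling, no filter, doublets kept, doubled resolution or a depth term, and 0 to 1 with a library left out. A block on replicate number also gave 0. Deviations of same-numbered libraries correlated at 0.15 and 0.02 in excitatory neurons, 0.12 and 0.07 in inhibitory neurons and 0.27 and -0.09 in astrocytes. With 2 CTRL libraries the centred deviations mirror each other, so these values say little, and with nothing in the labels to tie the numbers to a shared source they were not taken to pair the libraries.

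Of the area calls, the 11 in excitatory neurons were 9 to 11 under the settings other than left-out libraries and 2 to 11 with a library left out (3 without MC CTRL, 2 without MC DTA). The 17 calls over excitatory subtypes became 27 with no filter, were 15 to 24 under the others and 7 to 24 with a library left out. The 3 calls in other types became 1 with DESeq2 and 8 with no filter, and were 0 to 5 with a library left out. Of the 31 called results, 8 were called in every setting: Cdh6 and Pcdh17 in excitatory neurons, Cdh6, Pcdh15, Pcdh17 and Pcdh8 in L2/3 IT, Pcdh17 in L4/5 IT and Pcdh7 in L6 CT. Pcdh20 in L4/5 IT neurons reversed to -0.42 with doublets kept and -0.96 at doubled resolution. The cause was not tested. RLE scaling moved the median log2 fold change of all genes by at most 0.023. L6 IT neurons were not named with doublets kept and were not fitted there.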
